A study of Rattus norvegicus with 10 samples.

Results

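The genes described here are 9 genes that connect salt, angiotensin and cell volume: Agt, Ace, Nr3c2, Sgk1, Nfat5, Slc5a3, Slc6a6, Akr1b1 and Npr3. They were chosen by name, because seasonings may add salt, as every array probe set whose platform annotation gives 1 gene symbol that is one of these names. All 9 were measured, of 14217 genes on the array, by 14 of 31042 probe sets. White adipose tissue came from 10 male rats, 13 weeks old, with 1 array per animal. In the noodle group, 5 rats ate a diet of 30% instant noodle by weight, and 26% of its energy came from fat. The 5 control rats ate the diet described as the same but lacking the seasonings. Feeding was paired between the groups at roughly 60 g of diet daily for each kg of rat, and lasted 30 days by one label and 4 weeks by another. Neither the rat strain, the fat depot nor the salt content of the diets is stated in the labels. Animals are called by the numbers in their labels.

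Angiotensinogen, the product of Agt, is cut by renin and then by the converting enzyme Ace to angiotensin II, which constricts vessels and drives aldosterone release, and fat is a known source of angiotensinogen outside the liver. Aldosterone acts on the mineralocorticoid receptor Nr3c2, which also binds glucocorticoids, and Sgk1 is a kinase that this receptor induces. Nfat5 is the transcription factor of the hypertonic response, and its known targets load cells with small osmolytes: Akr1b1 makes sorbitol, Slc5a3 carries myo-inositol and Slc6a6 carries taurine. Npr3 is the clearance receptor that removes natriuretic peptides and is abundant in fat cells.

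Slc6a6 is shown with its promoter because it had the largest difference between the diets among the 9 genes, and Npr3 because it had the next largest. Both sequences are RefSeq's on the GRCr8 build, run from 250 bases before the transcription start to 50 after it and read 5′ to 3′ on the gene's strand. Capitals mark TGGAAA or its reverse complement TTTCCA, the core of the tonicity-responsive element that Nfat5 binds.
Slc6a6, chr4:125752252-125752551, plus strand: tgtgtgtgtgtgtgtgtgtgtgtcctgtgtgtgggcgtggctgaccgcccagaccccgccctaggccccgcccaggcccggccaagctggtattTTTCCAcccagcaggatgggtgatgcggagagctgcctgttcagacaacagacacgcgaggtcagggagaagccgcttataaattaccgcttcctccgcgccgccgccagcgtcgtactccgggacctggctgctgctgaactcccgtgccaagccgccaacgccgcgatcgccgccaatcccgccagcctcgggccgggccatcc
Npr3, chr2:62658716-62659015, minus strand: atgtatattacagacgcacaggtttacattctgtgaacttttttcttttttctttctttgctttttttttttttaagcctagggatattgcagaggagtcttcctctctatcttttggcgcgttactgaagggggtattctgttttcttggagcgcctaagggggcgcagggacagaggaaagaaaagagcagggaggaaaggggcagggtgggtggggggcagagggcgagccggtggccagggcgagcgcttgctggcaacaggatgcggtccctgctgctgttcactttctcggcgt
The Slc6a6 window held 1 such match, on the reverse strand, beginning 156 bases before the start, and the Npr3 window held none. Among all 33469 promoters of this length in the table, 22.7% held the 6 letters on either strand. AGAACA or TGTTCT, part of the motif that the receptors for glucocorticoids and mineralocorticoids share, was in 20.7% of all promoters and in neither of these. The 6-base matches are a description of the letters only. The table held promoters of 5 of the 9 genes, and it did not list Agt, Nr3c2, Nfat5 or Akr1b1.

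No probe set of the 9 genes differed between the diets past the threshold of an adjusted p of 0.05 (limma, Benjamini-Hochberg over all 31042 probe sets). Of the 14, 0 passed, and the share called among all probe sets tested was 0%, with a lowest adjusted p of 0.409. At an unadjusted p under 0.05 by limma the count was again 0 of 14, against 4.77% of all probe sets and 8.13% of the variable ones. That count was 1 without noodle animal 10 or control animal 2, when the brighter Slc6a6 probe set reached it, and 1 without control animal 11, when Npr3 did. The count over all probe sets depended on the scaling, with 1481 as deposited, 711 lower and 770 higher. It was 245 under quantile normalization (139 lower and 106 higher) and 246 with each array centred on its median (151 lower and 95 higher). The groups overlapped in all 14, while they did not overlap in 0.718% of all probe sets and 0.959% of the variable ones. Values are on the deposited scale, taken here as log2.

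The 14 probe sets fell into 5 that varied between animals and 9 that were flat, meaning an SD of 0.01 or less over the 10 arrays. On the whole array 8.4% of probe sets had a larger SD than that. The variable ones were those of Agt, Npr3 and Akr1b1 and both of Slc6a6. All probe sets of Ace, Nr3c2, Sgk1, Nfat5 and Slc5a3 were flat, so that 5 of the 9 genes have a level here but no usable spread. For 8 of the flat probe sets the SD lay between 0.000156 and 0.00032. Sgk1 lay just inside the limit with an SD of 0.00964, and the nearest of the variable probe sets was that of Akr1b1 with 0.114. No label states how the deposited values came to be this flat.

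**Figure D1:**
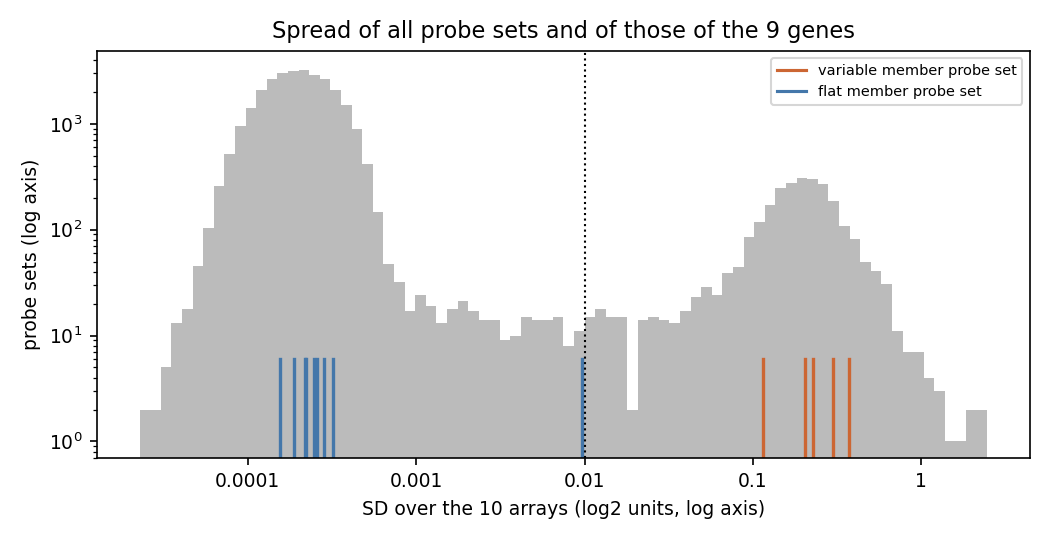
Histogram of the SD over the 10 arrays of all 31042 probe sets (x, log axis, log2 units; y, number of probe sets, log axis), with the 14 probe sets of the 9 genes as ticks and the limit of 0.01 as a dotted line. The 5 orange ticks lie in the right-hand hump and 8 of the 9 blue ticks in the left-hand one, with Sgk1 beside the line.

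Array medians lay between 6.17 and 6.18, and correlations between arrays between 0.993 and 0.998. Because 28435 of 31042 probe sets were flat, these measures cannot show how alike the arrays were. The weights that limma gave the arrays, fitted over the same 31042 probe sets, ran from 0.496 in control animal 14 to 1.97 in noodle animal 10. As most of those probe sets were flat, the weights cannot be read as the quality of the arrays. Of the labels, the extraction protocol names brain and the tissue field white adipose tissue. The median level of the 11 measured adipocyte markers was 12.2 and that of the 9 brain markers 5.74. RNA quality was read from control probe sets at the 3-prime and 5-prime ends of Actb and Gapdh. Their 3-prime minus 5-prime difference was 0.950 ± 0.084 in the control rats and 0.837 ± 0.069 in the noodle rats (SD, n = 5, two-sided exact permutation p = 0.0476). Nothing in the labels says that the animals were handled in batches.

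Among the angiotensin genes, Agt had the widest spread of the 9 genes and nearly equal group means. Its values in the noodle rats were 10.48 in animal 1, 10.50 in animal 4, 10.56 in animal 7, 10.71 in animal 10 and 10.96 in animal 13. In the controls they were 9.74 in animal 2, 10.97 in animal 5, 10.48 in animal 8, 10.71 in animal 11 and 11.03 in animal 14. The controls held both the lowest and the highest value, and every noodle rat lay between them. The means were 10.64 ± 0.20 and 10.59 ± 0.52 (noodle and control, SD, n = 5). The difference, noodle minus control, was 0.06 ± 0.24 log2 units (SE; 95% interval -0.49 to 0.61; limma adjusted p = 0.999). It was -0.156 without control animal 2 and -0.0232 without noodle animal 13, so its direction rested on single animals. The SD of Agt over the 10 animals, 0.373, was larger than that of 99.2% of all probe sets, most of them flat, and of 90.6% of the variable ones.

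Markers of the mesothelium, the cell layer that covers visceral fat, varied along with Agt at its extremes. The mean of the 8 measured markers was 6.09 in control animal 2, which had the lowest Agt, and 7.29 in control animal 14, which had the highest, and both are the extremes of all 10 animals. Over the groups that mean ranged from 6.13 to 6.78 in the noodle rats and from 6.09 to 7.29 in the controls. Of the 7 variable markers, 3 were lowest in control animal 2 and 6 were highest in control animal 14. All 7 had lower means in the noodle group, where 55.4% of all variable probe sets did. With 6 of them highest in the same control animal, the 7 are not independent counts. The keratin Krt8, singled out after its values were seen, differed by -0.54 ± 0.17 (SE, n = 5 per group; limma unadjusted p = 0.012, adjusted p = 0.993). Control animal 5 had Agt at 10.97 with a mesothelial mean of 6.49. The part of these cells in the Agt values was not tested. In a bulk tissue, fewer cells of a type and less RNA per cell cannot be told apart.

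Ace, which makes angiotensin II, was flat on both of its probe sets. One stood at 6.45 in all 10 animals and the other at 6.23. Neither can show a difference of the size seen for the variable genes, since the values of all animals lie within 0.000745 of each other.

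The other genes of the renin-angiotensin system gave 0 calls among 15 measured of 18 listed. Of the 6 that were variable, 1 had a higher and 5 had a lower mean under the noodle diet, and 55.4% of all variable probe sets had a lower mean there. Agtr1a, the main angiotensin II receptor, had the smallest p among them. On its brighter probe set the noodle rats stood at 8.43, 8.64, 8.32, 8.54 and 8.32 (animals 1, 4, 7, 10 and 13) and the controls at 8.51, 8.57, 8.69, 8.75 and 9.14 (animals 2, 5, 8, 11 and 14). The groups overlapped, with 3 of 5 noodle rats below every control. The difference was -0.28 ± 0.12 (SE, n = 5 per group; limma unadjusted p = 0.0521, adjusted p = 0.993; two-sided exact permutation p = 0.0397). Its other variable probe set differed by -0.23 ± 0.15 (two-sided exact permutation p = 0.190). Cma1, a mast cell chymase that can form angiotensin II, differed by -0.31 ± 0.18 (limma adjusted p = 0.993). Leaving out single animals gave -0.336 to -0.177 for the brighter Agtr1a probe set and -0.437 to -0.193 for Cma1. For both, the smallest difference came without control animal 14. The largest came without control animal 2 for Agtr1a and without noodle animal 4 for Cma1.

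The receptor arm of the mineralocorticoid pathway gave levels without spread. Nr3c2 stood at 6.48 in every animal, with values between 6.4762 and 6.4771. Sgk1, which glucocorticoids induce as well, had a mean of 7.46 in the noodle rats and 7.45 in the control rats. Its values ran from 7.44 in control animal 14 to 7.48 in noodle animal 4, and the difference of 0.004 ± 0.006 (SE) is smaller than the SD of either group. As a flat probe set it cannot show by how much Sgk1 differs between animals.

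Other genes of that pathway also gave 0 calls, among 15 measured of 19 listed, and 6 were variable, with 2 higher and 4 lower in the noodle group. Per1 and Klf9, which corticosteroids are known to induce and which also follow the time of day, had the smallest p of the variable ones. Per1 was 6.56, 7.04, 6.50, 7.41 and 7.37 in noodle animals 1, 4, 7, 10 and 13, and 7.06 to 7.41 in the controls. Klf9 was 8.98, 9.46, 9.09, 9.72 and 9.61 in the same noodle animals, and 9.34 to 9.86 in the controls. For both genes noodle animals 10 and 13 lay among the controls and animals 1 and 7 below them. The differences were -0.30 ± 0.20 for Per1 and -0.24 ± 0.16 for Klf9 (SE, n = 5 per group; limma adjusted p = 0.993 for each). Without single animals they ran from -0.408 to -0.18 and from -0.328 to -0.145.

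Among the osmotic genes, the taurine transporter Slc6a6 had lower means in the noodle group on both probe sets, short of the threshold. On the brighter one the noodle rats stood at 7.77 (animal 1), 7.92 (animal 4), 7.79 (animal 7), 8.19 (animal 10) and 8.12 (animal 13). The controls stood at 7.92 (animal 2), 8.74 (animal 5), 8.39 (animal 8), 8.19 (animal 11) and 8.27 (animal 14). Noodle animals 1, 4 and 7 lay below every control, animal 4 by less than the rounding, while animals 10 and 13 lay inside the control range. The means were 7.96 ± 0.19 and 8.30 ± 0.30 (noodle and control, SD, n = 5). The difference was -0.34 ± 0.15 log2 units (SE; 95% interval -0.69 to 0.01), or 1.27-fold lower on the deposited scale. Its unadjusted p was 0.0538 and its adjusted p 0.993 in limma, and the two-sided exact permutation p was 0.0556, where the smallest possible is 0.0079.

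The dimmer Slc6a6 probe set gave the same split of the noodle rats. Animals 1, 4 and 7 stood at 6.21, 6.22 and 6.24, below every control, and animals 10 and 13 at 6.51 and 6.59. The controls stood at 6.29 (animal 2), 6.75 (animal 5), 6.41 (animal 8), 6.35 (animal 11) and 6.72 (animal 14). The difference was -0.15 ± 0.12 (SE; 95% interval -0.43 to 0.13; limma adjusted p = 0.993), and it was -0.0852 without control animal 5 and -0.091 without control animal 14. With limma's array weights the differences of the 2 probe sets were -0.20 and -0.02. They were -0.19 and -0.17 with the 3-prime minus 5-prime difference as a covariate. The difference in RNA quality between the groups is given above, and its part in the Slc6a6 values was not tested beyond that fit.

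Both Slc6a6 probe sets ranked the animals alike. Over the 10 animals, Pearson's r was 0.811 (permutation p = 0.00346, adjusted 0.0346 over the 10 pairs of variable probe sets) and Spearman's rho 0.867 (permutation p = 0.00206, adjusted 0.0206). Without noodle animal 1 and control animal 5, the farthest from the median, r was 0.661. For deviations from the group means r was 0.791.

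**Figure D2:**
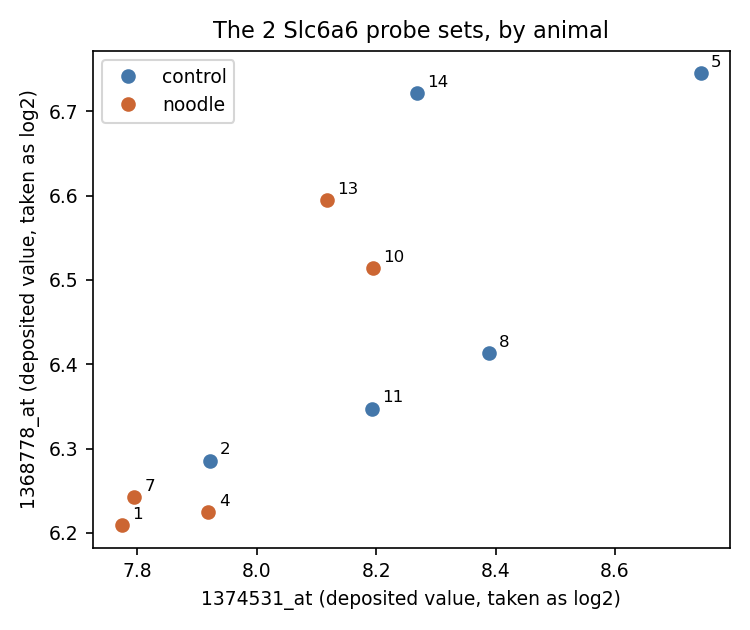
Value of each animal on the brighter Slc6a6 probe set (x) and on the dimmer one (y), both on the deposited scale taken as log2, with animal numbers and colours for the diets. Noodle animals 1, 4 and 7 sit at the lower left beside control animal 2, and control animal 5 is highest on both.

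Akr1b1, the aldose reductase that makes sorbitol, had almost the same mean in both groups. In the noodle rats its variable probe set stood at 11.52 (animal 1), 11.26 (animal 4), 11.42 (animal 7), 11.38 (animal 10) and 11.52 (animal 13). In the controls it stood at 11.53 (animal 2), 11.43 (animal 5), 11.48 (animal 8), 11.19 (animal 11) and 11.40 (animal 14). Every animal but noodle animal 4 and control animal 11 lay within 11.38 to 11.53. The difference was 0.01 ± 0.07 (SE, n = 5 per group; 95% interval -0.16 to 0.18; limma adjusted p = 0.999), and its sign turned when single animals were left out, over a range of -0.0424 to 0.0527. Its SD, 0.114, was the smallest of the 5 and larger than that of 18.4% of the variable probe sets. The other Akr1b1 probe set was flat at 6.47.

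Nfat5 and Slc5a3 were flat on all their probe sets. Nfat5, the factor that drives the osmotic genes, stood at 9.10 on one and 8.41 on the other. Slc5a3, the myo-inositol carrier, stood at 6.70 and 5.38. The differences between the diets lay between -0.000124 and 6.51e-05, and no response can be read from them.

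Of the other osmotic genes, 18 of 21 listed were measured and 0 passed the threshold. The 4 variable ones were split, with 2 higher and 2 lower in the noodle group. Aqp1, a water channel of vessel walls, was the lower of them by p. It stood at 9.10, 9.27, 9.05, 9.26 and 9.18 in noodle animals 1, 4, 7, 10 and 13, and at 9.59, 9.28, 9.35, 9.23 and 9.58 in control animals 2, 5, 8, 11 and 14. Except for control animal 11, every control lay above every noodle rat. The difference was -0.23 ± 0.08 (SE, n = 5 per group; limma unadjusted p = 0.0224, adjusted p = 0.993; two-sided exact permutation p = 0.0317). Leaving out any 1 of noodle animals 1 and 7 and control animals 2 and 14 brought the unadjusted limma p of Aqp1 above 0.05, to at most 0.0533. Among all variable probe sets, 5.33% were lower at an unadjusted p under 0.05. The mean of the 8 measured endothelial markers, of which 5 were variable, ranged from 8.18 to 8.42 in the noodle group and from 8.20 to 8.40 in the controls. The part of any cell type in the Aqp1 values was not tested.

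The natriuretic peptide clearance receptor Npr3 had a lower mean in the noodle group, well within the spread of the animals. The noodle rats stood at 8.54 (animal 1), 8.23 (animal 4), 8.28 (animal 7), 8.23 (animal 10) and 8.57 (animal 13). The controls stood at 8.62 (animal 2), 8.48 (animal 5), 8.78 (animal 8), 8.16 (animal 11) and 8.75 (animal 14). Control animal 11 was the lowest of all 10, and the other controls lay above the mean of the noodle rats. The means were 8.37 ± 0.17 and 8.56 ± 0.25 (noodle and control, SD, n = 5). The difference was -0.19 ± 0.13 (SE; 95% interval -0.49 to 0.12; limma adjusted p = 0.993). It was -0.286 without control animal 11, and -0.35 ± 0.15 with the 3-prime minus 5-prime covariate (limma adjusted p = 0.746).

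The rest of the natriuretic peptide system gave 0 calls among 10 measured of 12 listed genes. The 2 that were variable were Npr1, the guanylyl cyclase receptor that signals for the cardiac peptides, and Mme, the protease neprilysin that degrades them. Npr1 ran from 7.30 to 7.68 in the noodle rats and from 7.24 to 7.90 in the controls, and differed by -0.07 ± 0.14. Mme, which also belongs to the angiotensin list, ran from 8.44 to 9.05 and from 8.55 to 8.96, and differed by 0.01 ± 0.13 (SE, n = 5 per group; limma adjusted p = 0.995 and 0.999). The range of the noodle rats lay inside that of the controls for Npr1, and outside it on both ends for Mme.

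**Figure D3:**
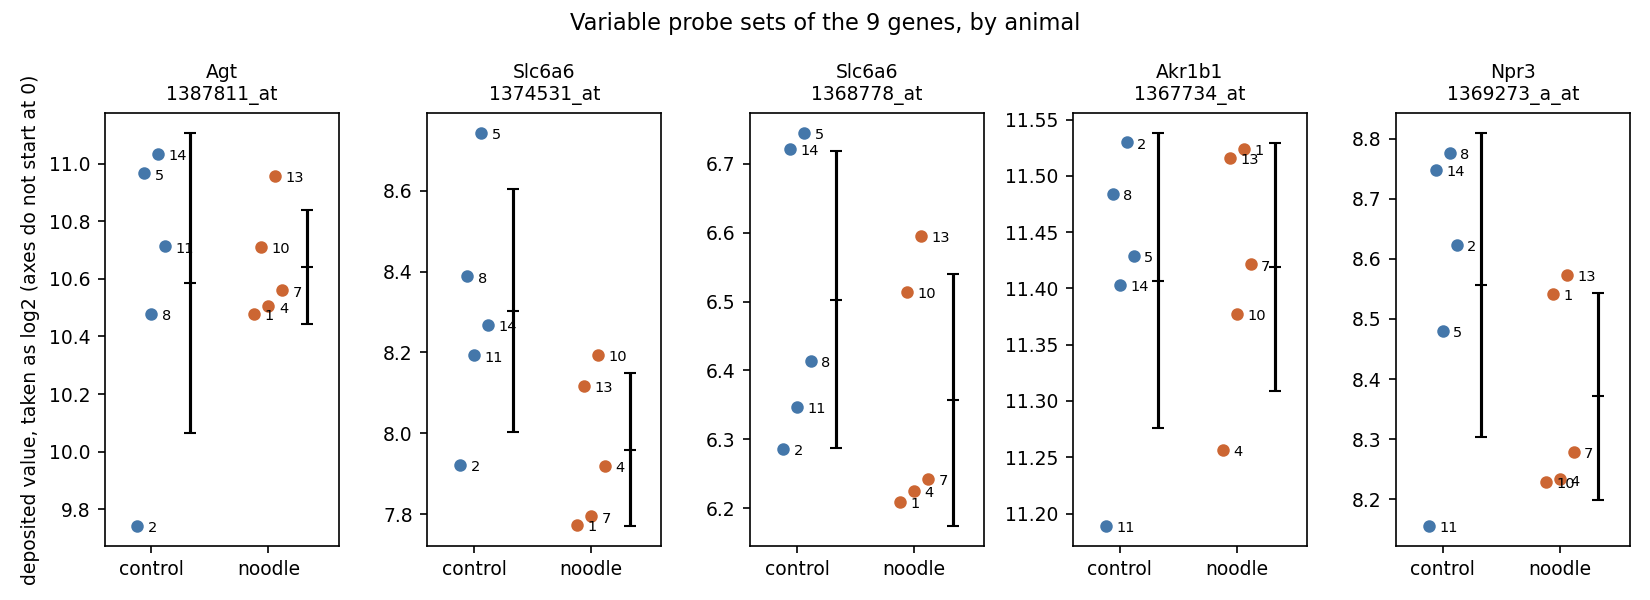
Values of the 5 variable probe sets in each animal (points with animal numbers; y, deposited scale taken as log2, a separate axis for each panel, not starting at 0), with the group mean and SD as a bar. The groups overlap in every panel, and noodle animals 1, 4 and 7 lie lowest in both Slc6a6 panels.

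Side by side, 3 of the 5 variable probe sets had lower and 2 had higher means in the noodle group. Their median difference was -0.15, beside -0.01 over all 2607 variable probe sets, and the 2 Slc6a6 probe sets, which measure 1 gene, are among the 3. Of the flat probe sets, Sgk1 had the largest difference, at 0.004.

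**Figure D4:**
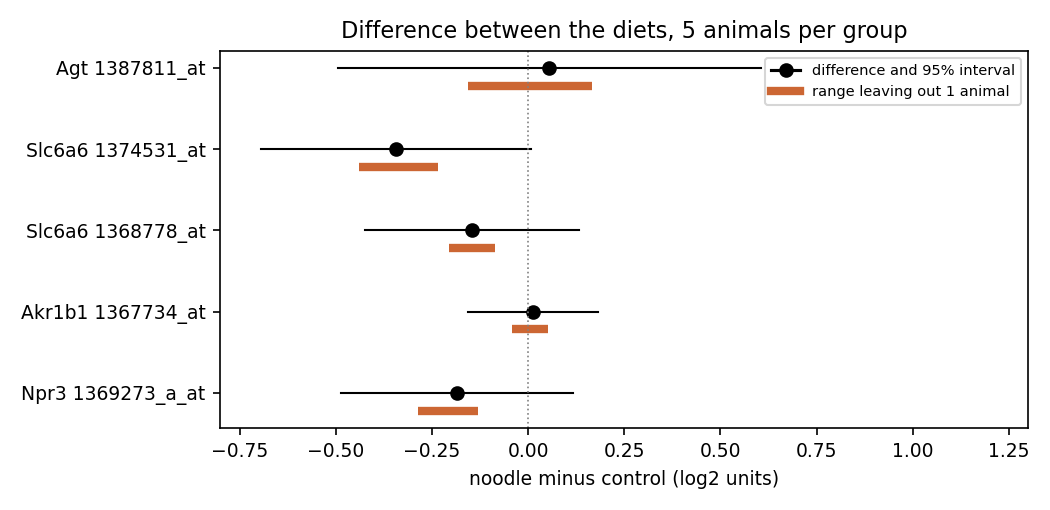
Difference between the diets, noodle minus control in log2 units (x), for the 5 variable probe sets (y), as a point with its 95% interval from limma, and in orange the range when each animal was left out. Every interval includes 0, and the orange range crosses 0 for Agt and Akr1b1.

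Over the 4 pathway lists together, 57 of 69 distinct genes were measured and 0 passed the threshold in limma. At an unadjusted p under 0.05 there were 4 in limma, of which 2 were higher and 2 lower, against 4.77% of all probe sets. That count was 1 without control animal 14, and 2 without noodle animal 1 or 7, with array weights and under both scalings. It was also 2 without flat probe sets, where 17 genes were tested. It was 3 without control animal 8, and 3 of the 40 genes tested without the dimmest 50% of probe sets. The count rose to 5 without control animal 11 and to 6 with the 3-prime minus 5-prime covariate. Over all 31042 probe sets the count moved too, from 1481 as deposited to 2068 with that covariate. There it was 245 under quantile normalization and 246 with centred arrays, so the share to compare with differs by setting. Averaging all probe sets of each gene gave 5, as did taking the most variable one. Of the 4 genes on the deposited values, only Aqp1 had a variable probe set, and the others, Agtr1b, Nedd4l and Furin, were flat. Among the 17 distinct variable genes, 5 were higher and 12 lower in the noodle group. These lists were chosen with earlier results of the data known.

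**Figure D5:**
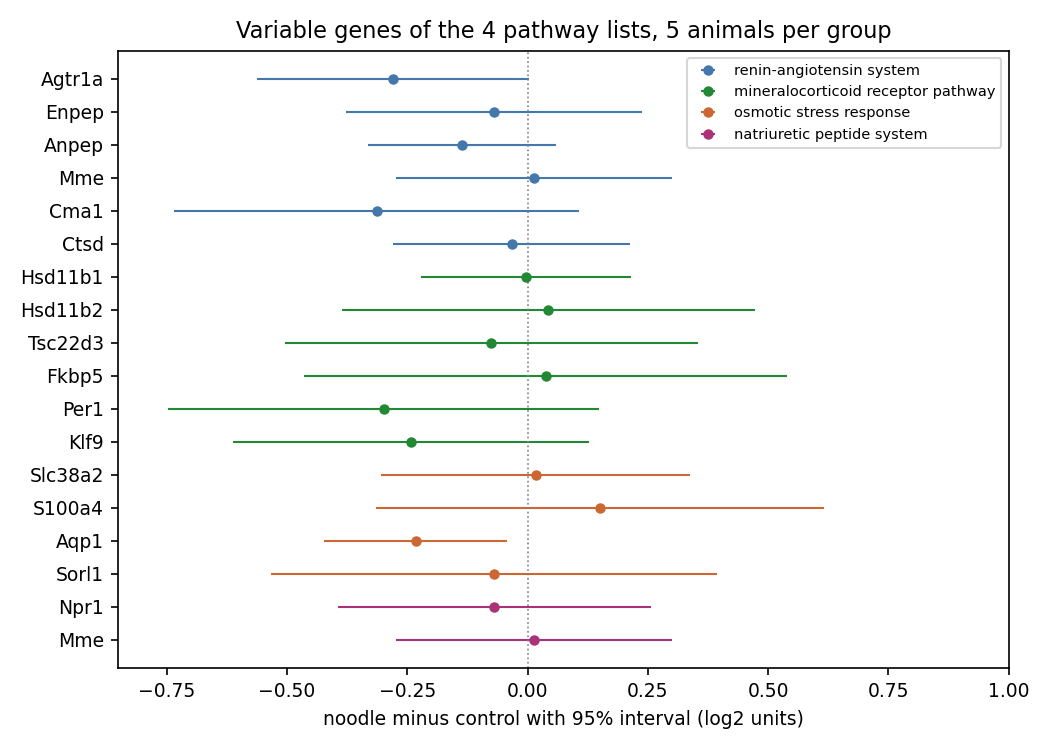
Difference between the diets, noodle minus control in log2 units with the 95% interval from limma (x), for the variable genes of the 4 pathway lists (y, coloured by list, Mme shown in both of its lists). The interval of Aqp1 lies wholly below 0 before adjustment, and all others include 0.

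Between different genes, 2 further pairs of the 10 were correlated across animals. Akr1b1 and Npr3 gave r = 0.730 (permutation p = 0.0146, adjusted 0.0489) and rho = 0.685 (permutation p = 0.0347, adjusted 0.116). Without noodle animal 4 and control animal 11, the farthest from the median of Akr1b1, their r was 0.472. For deviations from the group means it was 0.838. Agt and the dimmer Slc6a6 probe set gave r = 0.704 (permutation p = 0.0147, adjusted 0.0489) and rho = 0.733 (permutation p = 0.0206, adjusted 0.103). Without control animals 2 and 14 that r was 0.875. With the brighter Slc6a6 probe set Agt gave r = 0.519 (permutation p = 0.127, adjusted 0.318) and rho = 0.467 (permutation p = 0.178, adjusted 0.435).

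For each variable gene, the 3 most similar patterns over the 10 arrays were taken from 1628 other variable genes by Pearson's r, as a description of a search with no test. All points of such a correlation share their arrays. Nearest to Agt were the glutamate transporter Slc1a3 (0.877), the extracellular superoxide dismutase Sod3 (0.850) and Bcat2 (0.826), a transaminase of branched-chain amino acids. Nearest to Slc6a6 were the mast cell protease Mcpt10 (0.900), Ctdspl (0.898) and the transcription factor Nfib (0.891). Nearest to Akr1b1 were Tmem126a (0.871), Slc24a3 (0.861) and Timm8b (0.859), a mitochondrial import chaperone. Nearest to Npr3 were the complement component C6 (0.885), Psmd10 (0.873) and Tent5c (0.863).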

How the data were processed

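The table the authors deposited gives each probe set 1 value on each array, and its range was taken to mean log2 values. Per the labels' protocols, biotin-labelled cRNA was made from 100 ng of total RNA. How the background was corrected, probes summarised and arrays normalized, and the base of the logarithm, is not given in the sources used here. Of 31099 probe sets, 57 array controls were left out. Of the others, 20826 have 1 gene symbol in the platform annotation, 436 several and 9780 none. By gene identifier, 20758 matched the current table and 0 symbols changed. The probe set with the highest mean stood for a listed gene.

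Groups came from the diet label. The diets were compared with limma 3.58.1 in R 4.3.3 (lmFit, eBayes, two-sided, all 10 arrays), with exact permutation tests over 252 assignments and, for correlations, 100000 permutations. The number of arrays, 5 per group, limits the precision. Nothing says whether animals were housed or processed together. The p-values treat the animals as independent, which could not be checked.

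In data simulated for this comparison over 31042 probe sets, limma recovered 29.9% of the variable probe sets shifted by 0.5 log2 units. It recovered 73.1% at a shift of 1 and 95.5% at 2, with 4.35% false calls. The simulated noise was normal and independent between probe sets, with each probe set's own spread within groups. Shifts of 0.5, 1 and 2 were placed together, on 67, 67 and 66 variable probe sets. These rates hold for that setting, where many large shifts ease the adjustment, and cannot be read as the power of the diet comparison.

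The genes and lists were chosen with earlier results of these data known. Values are given for every variable probe set of the 9 genes, and for listed genes that were variable with an unadjusted p under 0.05, or else the 2 with the smallest p in a list. Alternatives were quantile normalization, median centring, filters on dim and flat probe sets, another variance prior, array weights, the 3-prime minus 5-prime covariate, other ways to represent a gene and leaving out each animal. Marker lists covered adipocytes, macrophages, endothelium, smooth muscle and pericytes, fibroblasts and progenitors, mesothelium, red blood cells, lymphocytes, liver, kidney tubule, adrenal cortex and brain.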

Additional observations from a re-analysis of the deposited data

Results flagged for a closer look

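In 48 groups of 5 animals, formed by the named variable probe sets and the means of the 12 marker lists, a single animal stood apart from its group 2 times. Chance gives about 2.4 of these, or about 1 in 20 groups. Both times it was noodle animal 4. For smooth muscle and pericyte markers its mean was 7.70, and the other noodle rats lay between 7.54 and 7.56. For red blood cell markers its mean was 7.88, and the other noodle rats lay between 8.07 and 8.14. None of the variable probe sets of Agt, Slc6a6, Akr1b1 or Npr3 had such an animal.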

How the results depend on the processing

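The count of the 9 genes' probe sets past the threshold was 0 on the deposited values and under every alternative run, as was that of the listed pathway genes. Over all probe sets it was 0 to 1 when single animals were left out, the 1 being reached without control animal 14, and 0 under the other alternatives. The lowest adjusted p of a member over all alternatives was 0.368, with centred arrays. With centred arrays, and likewise without flat probe sets, the brighter Slc6a6 probe set was the 1 member with an unadjusted p under 0.05 in limma. Over all probe sets tested in these settings, 246 of 31042 and 187 of 2607 had such a p. Both Slc6a6 probe sets and Npr3 kept a lower mean in the noodle group throughout, the former over -0.439 to -0.193 (brighter) and -0.205 to -0.0246 (dimmer), the latter over -0.352 to -0.13. Agt and Akr1b1 turned with the 3-prime minus 5-prime covariate, to -0.0464 and -0.0323, and within the ranges over single animals of -0.156 to 0.167 and -0.0424 to 0.0527; the cause was not tested. Leaving out single animals also turned Npr1 (-0.142 to 0.0232) and Mme (-0.052 to 0.102). With array weights Agt differed by 0.239. Centring and quantile normalization moved the median difference over all probe sets, noodle minus control, from 4.19e-06 as deposited to 0.00166 and 0.00124. Without flat probe sets the 9 flat ones have no value. No paired analysis was run, since no number occurs in both groups and the labels name no pairs of animals. Whether rats with neighbouring numbers were fed as pairs is not stated, and such pairs were not tested. Signal over background is not in the table, so no limit of detection can be given for the flat or dim genes.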

Other observations

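Star, the protein that brings cholesterol into mitochondria for steroid synthesis, was the 1 variable gene of the 6 measured adrenal cortex markers, and it was singled out after its values were seen. It stood at 7.31, 6.21, 6.53, 6.71 and 6.79 in noodle animals 1, 4, 7, 10 and 13, and at 7.22, 8.02, 7.50, 6.91 and 7.30 in control animals 2, 5, 8, 11 and 14. In 4 of 5 noodle rats it was below every control. The difference was -0.68 ± 0.25 log2 units (SE, n = 5 per group; limma unadjusted p = 0.0247, adjusted p = 0.993). The mean of the 6 adrenal cortex markers ranged from 5.92 to 6.10 in the noodle group and from 6.04 to 6.22 in the controls. As the other markers were flat, this mean follows Star alone and adds nothing to it.

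Among the other marker lists, the mean of the 11 macrophage markers ranged from 8.17 to 8.65 in the noodle group and from 8.01 to 8.58 in the controls. Of these 11, all variable, 10 had higher means in the noodle group and Trem2 a lower one (-0.30 ± 0.14), and 55.4% of all variable probe sets had a lower mean there. These markers were read in the same animals and are not independent counts. The mean of the 11 adipocyte markers ranged from 12.01 to 12.07 and from 12.00 to 12.08, and that of the 10 fibroblast and progenitor markers from 10.34 to 10.90 and from 10.38 to 10.87. Those of the 7 liver markers ranged from 6.25 to 6.33 and from 6.11 to 6.57, and those of the 7 kidney tubule markers from 5.62 to 5.69 and from 5.61 to 5.74. In the noodle and control groups, in that order, the 10 smooth muscle and pericyte markers ranged from 7.54 to 7.70 and from 7.50 to 7.77, the 5 red blood cell markers from 7.88 to 8.14 and from 8.02 to 8.35, and the 9 brain markers from 6.03 to 6.10 and from 6.07 to 6.13. All 8 lymphocyte markers were flat. Of the 100 genes measured over all 12 marker lists, 0 passed the threshold in limma. At an unadjusted p under 0.05 there were 4, against 4.77% of all probe sets and 8.13% of the variable ones: Krt8, Alas2, Star and Cd4, of which Cd4 was flat.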
